A study of Mus musculus with 7 samples.

Results

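The genes described here serve glucose uptake, glycolysis and the uptake and synthesis of amino acids, and their transcripts were read in Treg cells, the CD4 T cells marked by Foxp3 that hold immune responses in check. They are 40 genes, listed by name for their roles, of 21902 genes with a symbol on the array. Earlier results of these data were known when the list was chosen. Each of the 40 had 1 probe set. Of these, 38 lay above the floor on at least 3 arrays and were tested among 13083 genes. The floor of an array is the 95th percentile of its olfactory receptor probe sets, genes taken as silent in T cells. Slc7a11 and Pycr1 lay below it on all 7 arrays.

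CD4+ YFP+ cells were sorted from spleen and pLN (so written in the labels) of mouse chimeras that carry Foxp3Cre, a Cre recombinase expressed with Foxp3. The KO group is 3 arrays of cells with the Pggt1bfl/fl genotype, and the Het group is 4 arrays of cells with the Pggt1bfl/wt genotype. Both groups thus carry the Cre and at least 1 floxed allele, and no group without Cre was compared. Pggt1b is the gene for the catalytic subunit of the enzyme GGTase-I, which adds a lipid anchor to other proteins. The labels used here do not give age, the host and donor cells of the chimeras or any pooling of animals.

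Glycolysis splits glucose into pyruvate in a hexose phase that spends ATP and a triose phase that returns it, and activated T cells convert much of the pyruvate to lactate. The kinase complex mTORC1 senses amino acids and growth signals. It raises glucose and amino acid uptake, in part through the transcription factors HIF-1 alpha, MYC and ATF4. ATF4 is translated more when amino acids are scarce and induces amino acid transporters and the enzymes of serine, asparagine and proline synthesis. In mouse Treg cells mTORC1 and glucose use are known to accompany the activated, effector state.

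The Pggt1b probe set read 6.59, 6.62 and 6.59 on the KO arrays and 7.09, 7.11, 6.71 and 6.97 on the Het arrays, on the log2 scale, where a step of 1 is a 2-fold change. The KO values lay below all Het values, but the gene did not pass across all genes (difference -0.37 ± 0.13, SE, adjusted p = 0.126, limma). Whether its probes fall in the floxed part is not stated in the labels, so this is no check of the deletion. Of 11 Treg and T cell markers, 10 were measured, 2 fell in KO cells and 8 were lower by sign. Of all genes tested, 53.3% were lower by sign. At an adjusted p under 0.05, 2.55% were higher and 3.24% lower in KO cells (limma). These shares also stand beside the counts of the marker lists below. Ikzf2 (Helios) fell by 1.22 and the inhibitory receptor gene Ctla4 by 0.80 on the log2 scale (adjusted p = 0.00173 and 0.0212, limma). In 5 of the 10 the KO arrays lay below all Het arrays, against 9.82% of all genes tested. Among the 5 was Cd3d, which did not pass (-0.40 ± 0.12, adjusted p = 0.0768). Foxp3 and Cd4 differed by 0.06 ± 0.12 and 0.02 ± 0.11 and, like the Cd3 genes, were above the floor on every array, while the Il2ra probe set was above it on 1 of 3 KO and 2 of 4 Het arrays. The mean of the list lay between 10.07 and 10.25 on the KO arrays and between 10.41 and 10.4997 on the Het arrays. Myeloid markers were higher in KO cells for 14 of 19 measured genes of 21 listed. Their mean lay between 7.15 and 8.28 on the KO arrays, with KO 1 the highest, and between 5.94 and 6.42 on the Het arrays. Of the measured myeloid genes, Mrc1, C1qc and Cd14 were below the floor on all Het arrays. Lyz2, Cd68, Adgre1, C1qa, C1qb, Fcgr1, Cybb, Tyrobp, Vcam1, Hmox1 and Marco were above it on every Het array. Myeloid transcripts were thus read in both groups. Of 10 dendritic and plasmacytoid markers, 7 were measured and 3 were higher in KO cells, namely Siglech (2.18 ± 0.18, adjusted p = 0.00015), Tcf4 (0.79 ± 0.15) and Itgax (0.71 ± 0.14), while Flt3, Xcr1 and Clec9a were below the floor on all arrays. Of 10 CD8 T and NK cell markers, 6 were measured. Tyrobp (1.76 ± 0.21), which is also on the myeloid list, Eomes (0.85 ± 0.13) and Cd8b1 (0.65 ± 0.13) were higher in KO cells, Nkg7 was lower (-1.10 ± 0.12), and Klrb1c, Ncr1, Gzma and Klrk1 were below the floor on all arrays. Of the B cell markers 1 of 6 measured was higher (Blnk), and 0 passed of the plasma cell, erythroid and platelet, and stromal lists. The part of these marker differences in the values of the members was not tested. The labels do not state that arrays of one genotype came from separate animals, so p-values rest on the spread between these arrays alone, which may be technical.

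The question put to these genes is whether transcripts of glucose and amino acid use differ in Treg cells with both Pggt1b alleles floxed against 1. None of the 38 measured members passed at an adjusted p of 0.05, against 5.79% of all genes tested (2.55% higher and 3.24% lower in KO cells; limma). At an unadjusted p under 0.05 there were 5 members, against 19.9% of all genes. These were Pfkp and Tpi1 with lower means in KO cells, and Hk2, Slc7a5 and Shmt2 with higher means. With limma's variance trend and robust option Pfkp passed (adjusted p = 0.0442), where 8.59% of all genes were called. With each array left out in turn, 0 members passed every time.

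Differences ranged from -0.44 for Psat1 to 0.50 for Hk2 on the log2 scale, so no member differed by 2-fold. The median difference of the members was -0.09, against -0.02 over all genes tested, and 25 members were lower in KO cells by sign. Without KO 1 the members' median was -0.01, against 0.01 over all genes tested. The 95% interval of the difference lay inside a 2-fold change either way for 36 of the 38 members. The exceptions were Hk1, with an upper bound of 2.24-fold, and Psat1, with a lower bound of 0.463-fold. For 20 members the interval lay within 0.5 on the log2 scale. The median spread within groups was 0.18 (SD) for the members, against 0.19 for all genes tested.

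**Figure D1:**
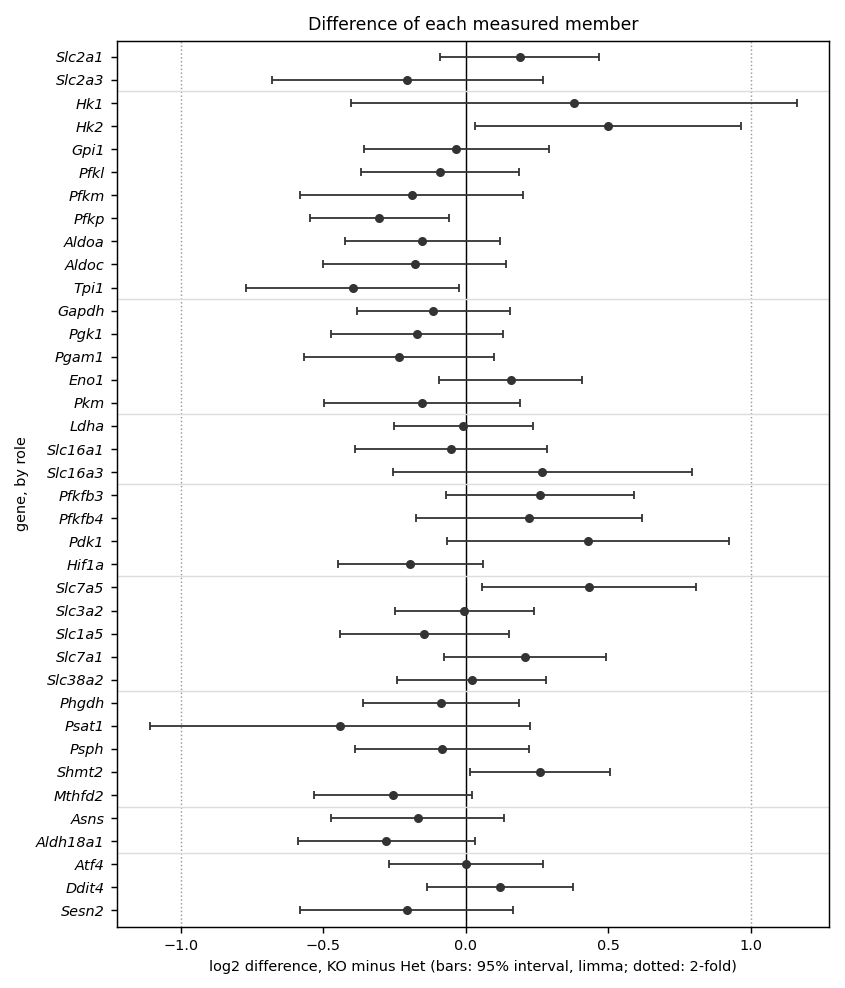
Log2 difference of KO minus Het cells (x axis) for each of the 38 measured members (y axis, grouped by role from glucose uptake at the top to amino acid stress response at the bottom). Points are limma estimates and bars their 95% intervals, 33 of which cross 0, and only those of Hk1 and Psat1 reach past the dotted lines at a 2-fold change.

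In 4 of the 38 members the KO arrays lay wholly outside the Het range, against 19.5% of all genes tested. They were Pfkp, Hif1a and Mthfd2 below it and Shmt2 above it. The KO arrays differed among themselves for the members as a set. The median member deviated from its mean over the 7 arrays by -0.07 on KO 1 and 0.07 on KO 2, both outside the Het range of -0.03 to 0.03, and by 0.00 on KO 3. This deviation was not computed over all genes, so it is not shown to be particular to the members. KO 1 gave the highest value of the 7 arrays for 7 members and the lowest for 8, together 39.5%, against 36.1% over all genes tested. Of all 13083 genes, KO 1 was the highest array for 1556 and the lowest for 3163. Het 1 gave 10 highest and 5 lowest values, also 39.5%, against 30.6% over all genes.

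**Figure D2:**
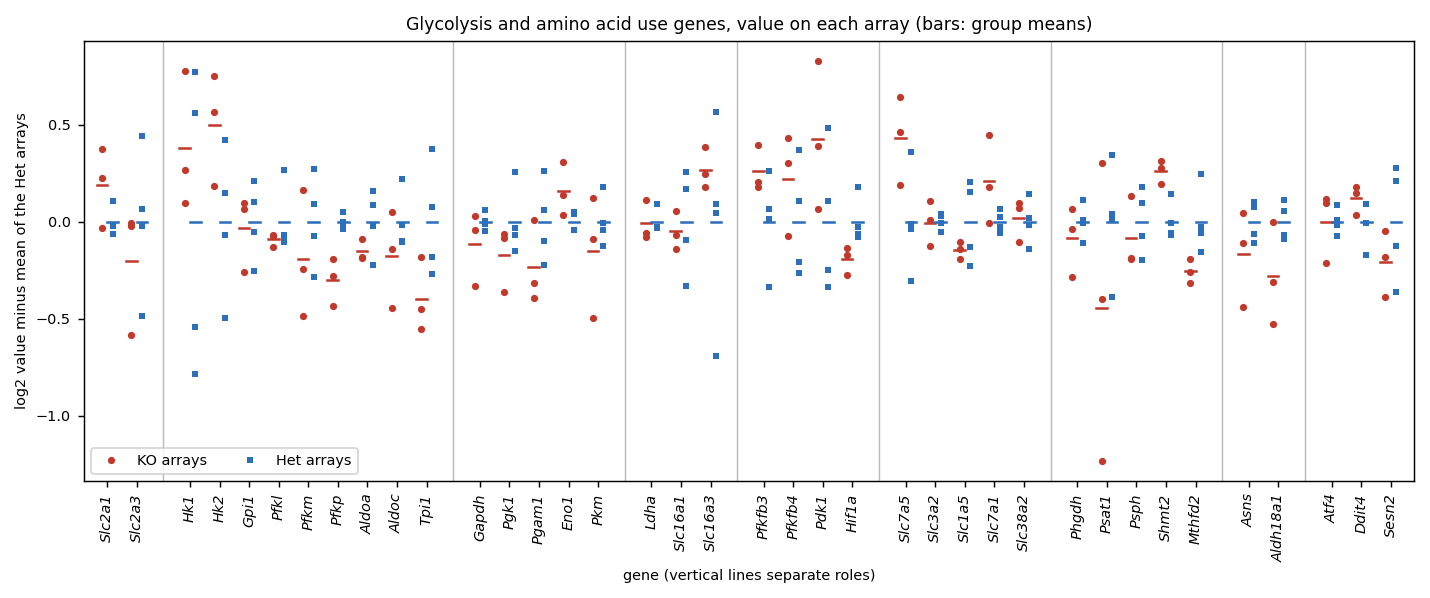
Value of each measured member on each array, as log2 value minus the gene's mean over the Het arrays (y axis), by gene and role (x axis). Circles are the 3 KO arrays, squares the 4 Het arrays, and bars the group means. The groups interleave for most genes, while Pfkp, Hif1a and Mthfd2 have all KO circles below the Het squares and Shmt2 has them above.

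Glucose enters T cells mainly through the transporters encoded by Slc2a1 (GLUT1) and Slc2a3 (GLUT3). Slc2a1 read 10.02, 10.43 and 10.28 on the KO arrays and 10.04, 10.16, 10.03 and 9.99 on the Het arrays. KO 2 and KO 3 lay above all Het arrays and KO 1 within their range, at a difference of 0.19 ± 0.13 (SE, adjusted p = 0.458). Slc2a3 read 7.48, 6.91 and 7.47 on the KO arrays and 7.56, 7.47, 7.93 and 7.01 on the Het arrays. KO 2 was the lowest of the 7 arrays, and the groups otherwise overlapped (difference -0.21 ± 0.22, adjusted p = 0.663).

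Of the 14 enzymes of glycolysis proper, from hexokinase to pyruvate kinase, 0 passed. By sign, 11 were lower in KO cells, against 53.3% of all genes tested, and their median difference was -0.15. The count by sign was 11 in the deposited scaling, after centring each array on its median and after quantile normalization, and 9 without KO 1, where the median was -0.07. With the myeloid marker mean as a covariate 7 of 14 were lower. Their median was then 0.10, against 0.09 over all genes tested in the same fit. Genotype accounts for 83.3% of the variance of that mean, so myeloid signal and genotype cannot be told apart in this fit.

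In the hexose phase, the hexokinases Hk1 and Hk2 trap glucose in the cell as glucose-6-phosphate, and Hk2 is the isoform induced on T cell activation. Hk2 read 6.96, 6.40 and 6.78 on the KO arrays and 5.72, 6.63, 6.15 and 6.36 on the Het arrays. KO 1 and KO 3 lay above all Het arrays and KO 2 within the Het range. The difference of 0.50 ± 0.21 (SE) was the largest in size among the members and did not pass (adjusted p = 0.219). Hk1 varied more between arrays of one genotype than between the genotypes. It read 6.99, 7.17 and 7.67 on the KO arrays and spread over 6.11, 7.67, 7.46 and 6.36 on the Het arrays, with an SD of 0.35 in KO and 0.78 in Het samples (n = 3 and 4).

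Phosphofructokinase commits sugar to glycolysis, and its subunits are encoded by Pfkl, Pfkm and Pfkp. Pfkp, the platelet-type subunit, read 10.16, 10.01 and 10.25 on the KO arrays and 10.41, 10.49, 10.44 and 10.44 on the Het arrays. The highest KO array was below the lowest Het array, and the 4 Het arrays agreed to an SD of 0.04. The difference was -0.30 ± 0.11 (SE), with the smallest adjusted p among the members (0.151) and a 95% interval from -0.55 to -0.06. The exact permutation p (two-sided, 35 ways to split the arrays) was 0.0286, the smallest these groups allow. Pfkl and Pfkm differed by -0.09 ± 0.13 and -0.19 ± 0.18, and their groups overlapped. The changes of the 3 subunits were not tested against each other.

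Tpi1, the triose phosphate isomerase that joins the branches of the split hexose, read 8.68, 8.31 and 8.41 on the KO arrays and 9.24, 8.68, 8.94 and 8.59 on the Het arrays. KO 2 and KO 3 lay below all Het arrays, and KO 1 lay inside the Het range. The difference was -0.40 ± 0.17 (SE, adjusted p = 0.220). The other enzymes of the phase were the isomerase Gpi1 (-0.03 ± 0.15) and the aldolases Aldoa (-0.15 ± 0.12) and Aldoc (-0.18 ± 0.15), all with overlapping groups.

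The triose phase yields ATP and NADH. Pgam1, a phosphoglycerate mutase, read 8.89, 8.82 and 9.22 on the KO arrays and 9.47, 8.99, 9.27 and 9.11 on the Het arrays, with KO 3 inside the Het range and the other KO arrays below it (-0.23 ± 0.15, SE, adjusted p = 0.441). Eno1, an enolase, read 10.96, 11.23 and 11.06 on the KO arrays and 10.96, 10.97, 10.88 and 10.88 on the Het arrays. KO 2 and KO 3 were above all Het arrays and KO 1 within their range, at a difference of 0.16 ± 0.11 (adjusted p = 0.492). Gapdh, which makes NADH and is often used as a reference transcript, differed by -0.11 ± 0.12. Its KO 1 value of 10.33 was the lowest of the 7 arrays, while KO 2 and KO 3 read 10.69 and 10.62 and the Het arrays 10.61 to 10.72. KO 1 was also the lowest array for the pyruvate kinase gene Pkm, at 8.80 against 9.17 to 9.48 in Het cells (difference -0.15 ± 0.16). The kinase gene Pgk1 differed by -0.17 ± 0.14. Several of these enzymes have many processed pseudogenes. The deposited table marks none of the 40 probe sets as cross-hybridising, and this was not tested here.

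Ldha encodes the lactate dehydrogenase subunit that turns pyruvate into lactate, and Slc16a1 and Slc16a3 encode the monocarboxylate transporters MCT1 and MCT4 that carry lactate across the membrane. Ldha read 9.18, 9.37 and 9.20 on the KO arrays and 9.35, 9.23, 9.23 and 9.23 on the Het arrays. Its difference of -0.01 ± 0.11 (SE) had a 95% interval from 0.839-fold to 1.18-fold. Slc16a1 read 7.67, 7.86 and 7.74 on the KO arrays and 8.06, 7.71, 7.48 and 7.98 on the Het arrays, a difference of -0.05 ± 0.15 (adjusted p = 0.907) with all KO values inside the Het range. Slc16a3 read 6.12, 6.19 and 6.33 on the KO arrays and 6.51, 5.99, 5.25 and 6.03 on the Het arrays, where Het 3 was below the floor (0.27 ± 0.24, adjusted p = 0.591).

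The promoter of Ldha shows the sequence through which glycolysis genes are known to be reached by MYC and HIF-1, and it is printed because Myc itself differed between these cells. The 250 bases before a RefSeq start of Ldha (GRCm38.p6, plus strand, chr7:46845554-46845803) hold the E-box CACGTG at 2 places, in capitals.
Ldha: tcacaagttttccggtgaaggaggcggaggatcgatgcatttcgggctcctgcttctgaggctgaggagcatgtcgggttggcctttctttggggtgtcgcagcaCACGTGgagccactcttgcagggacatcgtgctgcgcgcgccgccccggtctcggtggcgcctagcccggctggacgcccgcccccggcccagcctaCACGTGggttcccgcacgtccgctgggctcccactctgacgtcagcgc

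RefSeq promoters were matched for 37 of the 40 members, with 52 starts between them. Slc1a5, Slc2a3 and Slc7a5 had no matched promoter and were not searched for any motif. CACGTG, which reads the same on both strands, was found before 6 of the 52 member starts (11.5%), against 6.02% of all 32851 starts. The 6 genes were Pfkm, Ldha, Slc16a1, Pfkfb3, Hif1a and Aldh18a1, of which 0 passed the test, with differences between -0.28 and 0.26. ACGTG, searched on both strands and contained in every CACGTG, is the A form of the hypoxia response core. It was found before 20 of the 52 starts (38.5%), against 16.6% of all starts. The 17 genes that hold it had a median difference of -0.08, and the 18 measured genes with a matched promoter and no match had one of -0.06. A match is a description of the letters in the window and not of binding.

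Among the regulators, Pfkfb3 and Pfkfb4 encode the bifunctional enzymes that set the level of fructose-2,6-bisphosphate, the activator of phosphofructokinase. Pdk1 encodes a kinase that turns off pyruvate dehydrogenase, and Hif1a the oxygen-sensitive transcription factor subunit. Pdk1 read 8.23, 7.79 and 7.46 on the KO arrays and 7.50, 7.88, 7.15 and 7.06 on the Het arrays. KO 1 alone lay above the Het range, at a difference of 0.43 ± 0.22 (SE, adjusted p = 0.326). Pfkfb3 read 7.87, 7.65 and 7.68 on the KO arrays and 7.74, 7.54, 7.49 and 7.14 on the Het arrays (0.26 ± 0.15, adjusted p = 0.379). Only KO 1 was above all Het arrays. Pfkfb4 differed by 0.22 ± 0.18. Hif1a read 8.97, 8.93 and 8.83 on the KO arrays and 9.02, 9.04, 9.08 and 9.28 on the Het arrays. The KO values lay below all Het values (exact permutation p = 0.0286), at a difference of -0.20 ± 0.11 that did not pass across all genes (adjusted p = 0.390).

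Large neutral amino acids such as leucine enter through a heterodimer of SLC7A5 (LAT1) and the heavy chain SLC3A2 (CD98), a main supply line of mTORC1 in T cells. Slc7a5 read 9.18, 9.003 and 8.73 on the KO arrays and 8.90, 8.50, 8.53 and 8.23 on the Het arrays. KO 1 and KO 2 lay above all Het arrays and KO 3 below Het 1. The difference was 0.43 ± 0.17 (SE), with a 95% interval from 1.04-fold to 1.75-fold and an adjusted p of 0.183. With the myeloid marker mean as a covariate it was -0.17, in a fit where myeloid signal and genotype cannot be told apart. For its partner Slc3a2 the difference was -0.01 ± 0.11, with the KO arrays at 10.40, 10.16 and 10.30 around the narrow Het range of 10.24 to 10.33.

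Slc7a1, the transporter of arginine and lysine, read 8.97, 8.71 and 8.52 on the KO arrays and 8.55, 8.59, 8.46 and 8.50 on the Het arrays. KO 1 and KO 2 were above the Het arrays and KO 3 among them (0.21 ± 0.13, SE, adjusted p = 0.423). The glutamine transporters Slc1a5 (ASCT2) and Slc38a2 (SNAT2) differed by -0.15 ± 0.13 and 0.02 ± 0.12. Slc7a11, the cystine transporter, lay between 4.74 and 4.98 on KO arrays and 4.67 and 5.50 on Het arrays, all below the floor, and was not tested.

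Serine is made from a glycolytic intermediate by the enzymes of Phgdh, Psat1 and Psph in turn, and mitochondrial Shmt2 and Mthfd2 pass its carbon into the folate cycle. The mitochondrial pair differed in opposite directions, with no overlap between the groups for either gene. Shmt2 read 9.48, 9.56 and 9.60 on the KO arrays and 9.27, 9.43, 9.23 and 9.21 on the Het arrays, a difference of 0.26 ± 0.11 (SE, adjusted p = 0.223). Mthfd2 read 8.43, 8.36 and 8.30 on the KO arrays and 8.87, 8.56, 8.47 and 8.59 on the Het arrays, a difference of -0.26 ± 0.13 (adjusted p = 0.292). Neither passed across all genes, and the exact two-sided permutation p was 0.0571 for both.

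Psat1 had the widest spread of the KO arrays among the members. It read 7.51, 6.81 and 5.98 there and 7.55, 7.25, 7.21 and 6.82 on the Het arrays, with SDs of 0.77 and 0.30 (n = 3 and 4). KO 3 lay far below the other arrays and KO 1 near the top of the Het range, so the difference of -0.44 ± 0.30 (SE) was within this spread (adjusted p = 0.465). Phgdh and Psph differed by -0.09 ± 0.12 and -0.08 ± 0.14, with overlapping groups.

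Asparagine is made by Asns, and proline by Aldh18a1 and Pycr1. Aldh18a1 read 8.56, 8.87 and 8.35 on the KO arrays and 8.80, 8.78, 8.92 and 8.98 on the Het arrays. KO 1 and KO 3 lay below all Het arrays and KO 2 within their range (-0.28 ± 0.14, SE, adjusted p = 0.305). Asns read 6.27, 6.75 and 6.60 on the KO arrays and 6.65, 6.60, 6.81 and 6.79 on the Het arrays, with KO 1 the lowest (-0.17 ± 0.14, adjusted p = 0.557). Pycr1 lay between 4.92 and 5.22 on KO arrays and 4.79 and 5.41 on Het arrays, below the floor throughout.

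Of the 37 members with a matched promoter, Asns, Slc7a11 and Pycr1 hold the composite element TGATGNAAN. This form is bound by ATF4 with a C/EBP partner when amino acids run short, and the 3 sequences are printed for that reason. The transporter genes Slc7a5 and Slc1a5 had no matched promoter, so whether they hold the element was not examined. It was searched on both strands in the 250 bases before each start. It stood before 3 of the 52 member starts (5.77%), against 3.44% of all starts. Capitals mark the element in the windows below, all on the minus strand of GRCm38.p6, at chr6:7693210-7693459 for Asns, chr3:50443614-50443863 for Slc7a11 and chr11:120643749-120643998 for Pycr1.
Asns: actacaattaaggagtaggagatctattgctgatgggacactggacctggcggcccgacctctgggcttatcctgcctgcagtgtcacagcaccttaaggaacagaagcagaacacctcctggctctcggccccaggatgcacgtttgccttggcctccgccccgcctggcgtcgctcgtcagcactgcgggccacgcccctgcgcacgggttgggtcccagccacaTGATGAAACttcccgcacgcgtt
Slc7a11: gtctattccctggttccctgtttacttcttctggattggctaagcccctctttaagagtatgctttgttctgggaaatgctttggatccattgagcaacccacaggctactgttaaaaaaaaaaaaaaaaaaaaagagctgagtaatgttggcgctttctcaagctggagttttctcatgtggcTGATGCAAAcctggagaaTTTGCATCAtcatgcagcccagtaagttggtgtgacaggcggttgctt
Pycr1: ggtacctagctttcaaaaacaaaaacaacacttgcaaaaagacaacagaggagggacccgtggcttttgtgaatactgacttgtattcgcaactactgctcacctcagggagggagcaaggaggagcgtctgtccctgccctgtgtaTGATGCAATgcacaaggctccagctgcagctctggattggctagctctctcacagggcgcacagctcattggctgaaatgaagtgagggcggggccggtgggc

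The Slc7a11 window holds the element 2 times, once on each strand. Only Asns of the 3 genes was above the floor, so the element marks 1 measured member with a matched promoter. The other 2 genes gave no usable value in either genotype.

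The stress sensors gave no called change. Atf4 read 10.40, 10.71 and 10.73 on the KO arrays and 10.59, 10.70, 10.62 and 10.54 on the Het arrays. Its difference was 0.00 ± 0.12 (SE), with a 95% interval from -0.27 to 0.27. ATF4 is controlled largely by translation, so its transcript does not report its protein. Ddit4, an inhibitor of mTORC1, read 7.37, 7.22 and 7.34 on the KO arrays and 7.28, 7.02, 7.28 and 7.18 on the Het arrays (0.12 ± 0.12, adjusted p = 0.629). Sesn2, the leucine sensor that restrains mTORC1, read 5.98, 5.77 and 6.11 on the KO arrays and 6.44, 5.80, 6.37 and 6.04 on the Het arrays (-0.21 ± 0.17, adjusted p = 0.559). The groups overlapped for both genes.

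**Figure D3:**
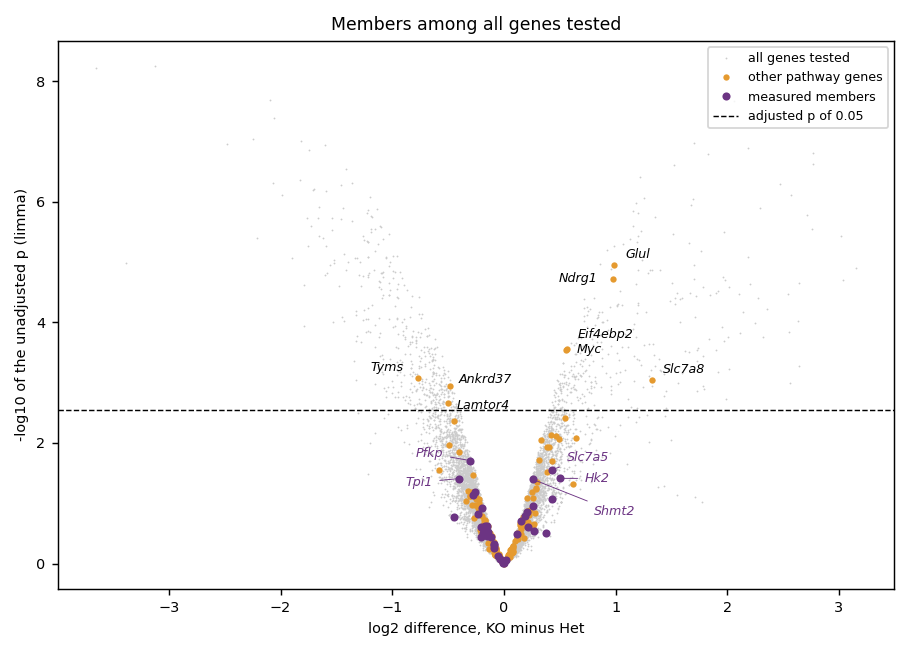
Log2 difference of KO minus Het cells (x axis) against −log10 of the unadjusted limma p (y axis). Grey points are the 13083 genes tested, orange points 159 measured genes of the other pathway lists and purple points the 38 measured members. All members lie below the dashed line at an adjusted p of 0.05, while 8 of the orange genes lie above it and are named, as are the 5 members at an unadjusted p under 0.05.

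Around the members, 177 other genes of the same pathways were grouped in 8 lists, and 159 were measured. Of these, 5 rose and 3 fell in KO cells, against 5.79% of all genes tested. The list of other glycolysis and pyruvate genes had 0 calls among 23 measured, at a median of 0.00. Its smallest p was that of the muscle-type mutase gene Pgam2, which read 8.05, 8.02 and 7.61 on the KO arrays and 7.53, 7.34, 7.40 and 7.11 on the Het arrays (0.55 ± 0.15, SE, adjusted p = 0.0596). It passed without KO 3 (0.69), after centring (0.58), after quantile normalization (0.59), with trend and robust variances (0.55) and with array weights (0.49). The pyruvate dehydrogenase kinase gene Pdk2 differed by 0.46 ± 0.14 (adjusted p = 0.0893), with all KO arrays above all Het arrays, and passed with array weights (0.51). The pentose phosphate and hexosamine list also had 0 calls among 13 measured, at a median of 0.02, with the smallest p in G6pdx, the entry enzyme of the pentose phosphate pathway (0.29 ± 0.14, adjusted p = 0.270), and Rpe (-0.28 ± 0.13, adjusted p = 0.289).

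Of 16 measured HIF and oxygen response genes, 1 rose and 1 fell, at a median of 0.07. Ndrg1, a stress-induced gene also linked to T cell anergy, read 9.23, 9.56 and 9.42 on the KO arrays and 8.60, 8.25, 8.35 and 8.52 on the Het arrays. All KO arrays lay above all Het arrays, and the rise was 0.97 ± 0.13 (SE, adjusted p = 0.00182), or 1.96-fold. Ankrd37, a HIF-1 target, read 7.46, 7.52 and 7.53 on the KO arrays and 8.10, 7.86, 7.9998 and 7.99 on the Het arrays. The groups did not overlap, and the fall was -0.49 ± 0.11 (adjusted p = 0.0281). The Ankrd37 call was lost without KO 1 (-0.46), KO 2 (-0.49), KO 3 (-0.50), Het 1 (-0.45) or Het 3 (-0.48) and after quantile normalization (-0.44).

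Among mTORC1 and nutrient sensing genes 2 rose and 1 fell of 28 measured, at a median of -0.02. Myc, the transcription factor that drives glycolysis and amino acid uptake in activated T cells, read 11.22, 11.12 and 11.21 on the KO arrays and 10.64, 10.63, 10.66 and 10.59 on the Het arrays. The groups were far apart against their spread, at a rise of 0.55 ± 0.10 (SE, adjusted p = 0.0113). Eif4ebp2, a repressor of cap-dependent translation that mTORC1 inactivates, read 8.56, 8.64 and 8.72 on the KO arrays and 8.02, 8.11, 8.05 and 8.11 on the Het arrays. It rose by 0.57 ± 0.11 (adjusted p = 0.0112), a call lost without KO 3 (0.53). Lamtor4, a subunit of the lysosomal Ragulator complex, read 8.61, 8.83 and 8.98 on the KO arrays and 9.26, 9.35, 9.42 and 9.21 on the Het arrays. Its fall of -0.50 ± 0.12 (adjusted p = 0.0417) was lost without KO 1 (-0.40), KO 2 (-0.51), Het 1 (-0.52), Het 2 (-0.49) or Het 3 (-0.47).

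Other serine, folate and glutamine genes gave 1 rise and 1 fall among 29 measured, at a median of -0.03. Glul, which makes glutamine from glutamate, read 8.36, 8.44 and 8.50 on the KO arrays and 7.54, 7.37, 7.23 and 7.63 on the Het arrays. It rose 1.98-fold (0.99 ± 0.13, SE, adjusted p = 0.00135), with no overlap. Tyms, the thymidylate synthase of dividing cells, read 6.89, 6.79 and 7.28 on the KO arrays and 7.79, 7.85, 7.99 and 7.42 on the Het arrays. It fell by 0.77 (SE 0.17, adjusted p = 0.0228), and the call was lost without KO 1 (-0.72), KO 2 (-0.67), Het 1 (-0.76), Het 2 (-0.74) or Het 3 (-0.69).

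Among 15 other amino acid transporters, measured at a median of 0.00, 1 rose. Slc7a8 (LAT2), a neutral amino acid transporter that also pairs with SLC3A2, read 7.41, 7.17 and 6.33 on the KO arrays and 6.13, 5.22, 5.25 and 5.98 on the Het arrays. Only 2 of 4 Het arrays were above the floor. The KO arrays lay above the Het arrays, at a difference of 1.33 ± 0.29 (SE, adjusted p = 0.0241), and the call was lost without KO 1 (1.11), KO 2 (1.22), Het 2 (1.19) or Het 3 (1.19). Slc7a8 and Glul are also expressed by macrophages. The 14 of 19 myeloid markers named above rose on the same KO arrays, their mean at 7.15 to 8.28 in KO and 5.94 to 6.42 in Het cells, and their part in the differences of Slc7a8, Glul and the members was not tested. With the myeloid marker mean as a covariate, 0 of the 8 called genes passed. The differences were then 0.38 for Slc7a8, -0.15 for Lamtor4, 1.04 for Glul, 1.19 for Ndrg1 and 0.46 for Myc. For Ankrd37 it was -0.51, with an SE of 0.27 against 0.11 without the covariate. Genotype accounts for 83.3% of the variance of that mean, so myeloid signal and genotype cannot be told apart in this fit. In that fit 0.0917% of all genes were called. In these bulk samples fewer cells of a type and less RNA per cell cannot be told apart.

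**Figure D4:**
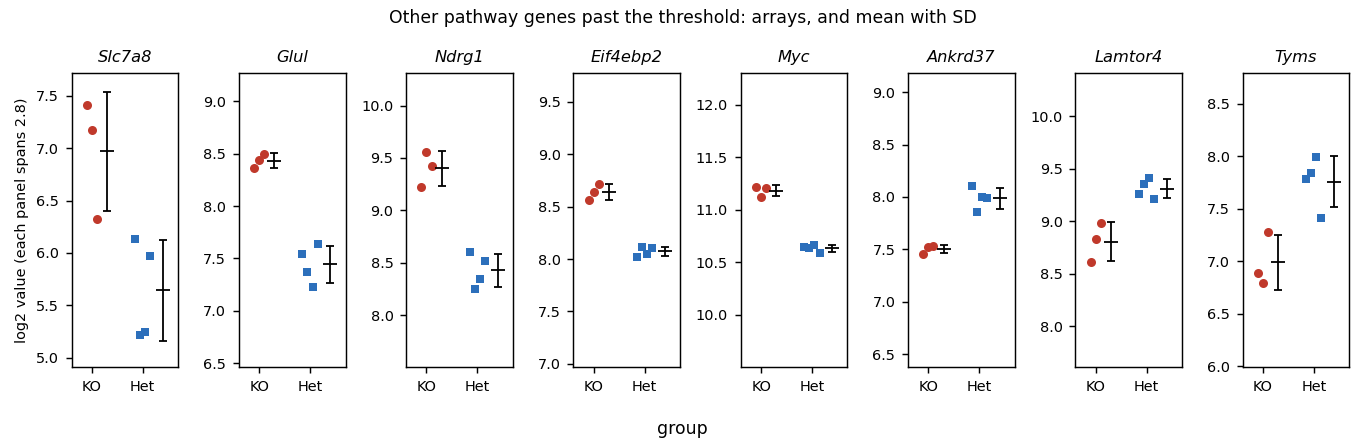
Log2 values (y axis, every panel spanning 2.8) of the 8 other pathway genes past the threshold, by group (x axis). Circles are the 3 KO and squares the 4 Het arrays, with the mean and SD of each group beside them. In all 8 genes the groups do not overlap, and Slc7a8 shows the widest spread.

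The genes of the ATF4 and uncharged tRNA response had 0 calls among 16 measured, at a median of 0.01. The smallest p was that of Eif2ak2, the kinase activated by double-stranded RNA (-0.49 ± 0.16, SE, adjusted p = 0.108), which passed with array weights (-0.60), and next came the initiation factor Eif2s1 (-0.25 ± 0.13, adjusted p = 0.314). The aminoacyl-tRNA synthetases, which charge tRNAs and of which several are ATF4 targets, had 0 calls among 19 measured, at a median of 0.15. KO arrays lay above all Het arrays in 5 of the 19 and below in 0, against 9.68% above and 9.82% below over all genes tested. Gars, the glycine enzyme, read 9.80, 9.79 and 9.71 on the KO arrays and 9.41, 9.49, 9.41 and 9.43 on the Het arrays, a difference of 0.33 ± 0.10 (adjusted p = 0.0970). Wars, the tryptophan enzyme, differed by 0.38 ± 0.13 (adjusted p = 0.113). With trend and robust variances both passed, at adjusted p = 0.0365 for Gars and 0.0394 for Wars.

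**Figure D5:**
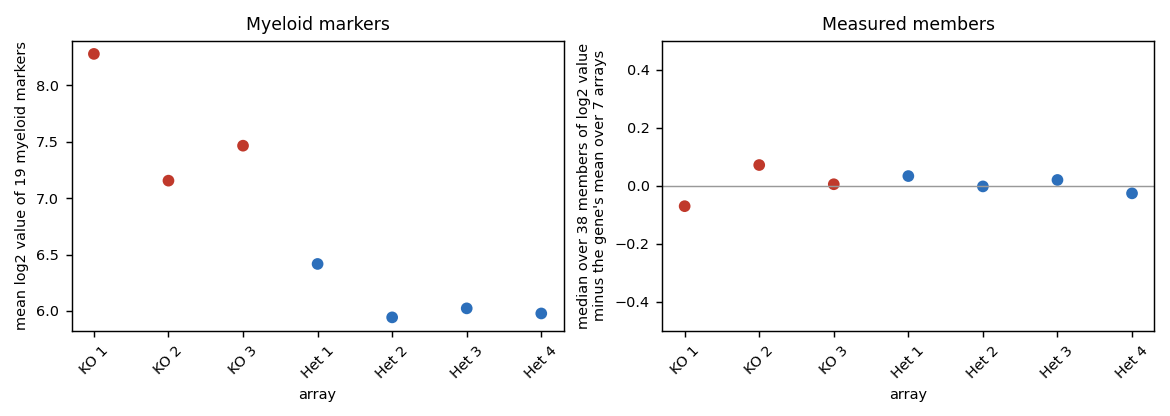
Left, mean log2 value of 19 myeloid markers on each array (y axis), by array (x axis), from 7.15 to 8.28 in KO and 5.94 to 6.42 in Het cells. Right, the median over the 38 measured members of the log2 value minus the gene's mean over the 7 arrays, from -0.07 to 0.07 in KO and -0.03 to 0.03 in Het cells, with KO 1 below and KO 2 above the Het range.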

How the data were processed

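RNA from 7 samples was amplified and biotin-labelled with NuGEN WTA Pico v2 and Encore Biotin kits, per the labels' protocols. The authors deposited log2 values made with RMA in Affymetrix Expression Console 1.1, per the submitters' processing notes. RMA equalises the arrays, so a shift of most genes would be reduced. The 2 deposited tables hold the same values (within 1e-09). Of 28846 probe sets 22203 carry a gene symbol, and each gene was represented by its probe set of highest mean. Genes above the floor on at least 3 arrays were kept. They were fitted with limma 3.58.1 in R 4.3.3 (lmFit, eBayes) as KO minus Het, with Benjamini-Hochberg adjustment over 13083 genes and a threshold of 0.05. A check of the fit on simulated data required recovery only at a change larger than any member showed. It therefore gives no assurance that differences of the members' size would be called. Values after ± are SE unless SD is named. Groups came from the genotype label, and numbers within a group follow accession order and pair nothing. The number of arrays limits the precision, and arrays of one genotype correlated at 0.971 to 0.987.

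The members and lists were chosen with earlier results of these data known. By rule, array values are given for the 2 members of each role with the smallest p, and of the other lists called genes are named, at most 4 a list, or else the 2 with the smallest p. Array values of Hk1, Tpi1, Gapdh, Pkm, Ldha, Hif1a, Slc3a2, Psat1, Atf4, Pgam2 and Gars were added after they were seen. Settings were varied in scaling, filter, probe set, variance model, weights, a myeloid covariate and each array left out. Promoters come from RefSeq, build GRCm38.p6, from 250 bases before each start.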

Additional observations from a re-analysis of the deposited data

Results flagged for a closer look

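Among 57 genes screened for a Het array far from the other 3, 2 members met the rule. By chance about 1 in 20 groups would, so this number is not more than chance gives. Pfkl, a phosphofructokinase subunit, read 7.68 in Het 3, and 7.31 to 7.34 in the other Het samples. Ldha read 9.35 in Het 1, and 9.23 in the other 3 Het samples.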

How the results depend on the processing

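Across all 15 alternatives the count of members past the threshold stayed at 0, except that trend and robust variances gave 1 lower member (Pfkp). Over all genes, array weights gave 547 higher and 697 lower genes and the myeloid covariate 1 and 11, against 333 and 424. Leaving out 1 array at a time gave 209 to 290 higher and 240 to 455 lower genes, with fewest higher without KO 3 (209) and Het 3 (210), and fewer lower without KO 2 (247), KO 3 (271), Het 2 (248) and Het 3 (240). The members' median difference was -0.027 with array weights, -0.030 with the covariate, and -0.091 to -0.0065 with 1 array left out, the last without KO 1. Over all genes tested the median also moved, from -0.017 in the main fit. It was 0.0091 with array weights, 0.085 with the covariate and 0.013 without KO 1. The cause of these shifts was not tested. Of 569 member values under alternatives, 525 kept sign and side of the threshold and 43 turned sign. Centring turned Atf4 (0.028), Ldha (0.020) and Slc3a2 (0.024), and array weights Atf4 (0.034), Gpi1 (0.083), Ldha (0.019), Psph (0.012) and Slc16a1 (0.082). The covariate turned Aldoc (0.30), Asns (0.41), Atf4 (0.41), Ddit4 (-0.11), Gapdh (0.34), Gpi1 (0.29), Ldha (0.094), Pdk1 (-0.24), Pfkfb3 (-0.21), Phgdh (0.34), Pkm (0.38), Psph (0.076), Slc16a3 (-0.011), Slc1a5 (0.11), Slc7a1 (-0.19) and Slc7a5 (-0.17) among the members, and Rpe (0.081). Genotype accounts for 83.3% of the variance of the covariate, so that fit cannot tell myeloid signal from genotype. With 1 array left out, differences that turned sign ranged from -0.060 to 0.11 for Atf4, -0.12 to 0.079 for Gpi1, -0.070 to 0.025 for Ldha, -0.16 to 0.014 for Phgdh, -0.29 to 0.017 for Pkm, -0.16 to 0.034 for Slc16a1, -0.027 to 0.084 for Slc38a2 and -0.060 to 0.056 for Slc3a2. Without the filter on dim genes Lamtor4 was no longer called (-0.50). No paired analysis was possible because the labels give no replicate numbers shared by the groups. The 7 arrays limit the precision, and dim probe sets such as Slc7a11 and Pycr1 bear no comparison.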
